A study of Arabidopsis thaliana with 8 samples.

Results

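GH3.3 (AT2G23170), GH3.17 (AT1G28130) and IAA29 (AT4G32280), genes of auxin conjugation and auxin response, were followed through 4 shoot tissues of Arabidopsis thaliana. They were taken by name from the annotation of the arrays, where each has 1 probe set, and the 3 genes stand among 9905 named genes tested. The tissues came from soil-grown plants of the accession Landsberg erecta (Ler), in short days with 10 h of light at 20 °C, and no treatment, mutation or transgene is named for any of them. The groups were younger vegetative apices (Apex_5DAS, placed at day 5 after sowing by the titles and at day 7 by the source names), older vegetative apices from day 14 (Apex_14DAS), expanding leaves 1 and 2, taken on day 14 (EL_14DAS), and mature leaves, taken on day 35 (ML_35DAS). Each group has 2 Affymetrix ATH1 arrays. Whether replicate arrays stem from different plants is not stated, so the p-values measure only the spread between these arrays, which may be technical, and having so few arrays limits how precise any value is.

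Auxin acts by bringing its F-box receptors together with Aux/IAA proteins, short-lived repressors that are then degraded, which frees the auxin response factors to switch genes on. Many GH3 genes are among those switched on, and the enzymes of the auxin-active branch of this family join the hormone to amino acids, which takes it out of action. GH3.3 belongs to the members induced by auxin, GH3.17 prefers to form the glutamate conjugate, and IAA29 is an Aux/IAA gene known from seedlings as a target of the light-regulated PIF transcription factors. In a shoot, the apex with its youngest leaf primordia is a site of auxin synthesis and of the auxin maxima that position new organs.

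Levels are given as probe set intensity after scaling the arrays to a common trimmed mean. Replicates resembled each other least in younger apices, with a Pearson r of 0.908 across genes, and most in mature leaves, with 0.978. Apex_5DAS replicate 1 stood apart in its 25S ribosomal RNA control, at a deposited intensity of 200.7, against 1.01 to 28.1 on the other 7 arrays. Of 27 cell type markers chosen to check the tissues, only the stem cell gene CLV3 has a named probe set. CLV3 lay between 4.11 and 13.3 in apices, at 2.24 and 3.096 in expanding leaves and at 4.87 and 0.588 in mature leaves, never above percentile 25.5 of its array, so it marks none of the tissues here. As a substitute chosen with earlier results known, the summed intensity of 4 cell division genes (AUR2, TOPII, BUBR1 and HTB2) was 572 to 868 in younger apices, 1237 to 1397 in older apices, 314 to 529 in expanding leaves and 115 to 123 in mature leaves.

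The GH3 genes were high in apices and low in leaves. GH3.3 had scaled intensities of 183.8 and 160.5 in younger apices, 207.6 and 214.1 in older apices, 4.0 and 1.01 in expanding leaves, and 14.7 and 17.7 in mature leaves. All 4 apex arrays lay above all 4 leaf arrays, as they did for 11% of the 9905 genes. Within the arrays, GH3.3 stood at percentiles 73.3 to 79.6 of all probe sets in apices, at 12.4 and 4.1 in expanding leaves and at 36.5 and 38.4 in mature leaves. Both expanding-leaf values lay below percentile 30 of their array, which was 19.9 and 16.0, so they mark a level at the low end of the array and not a measured amount.

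GH3.17 had scaled intensities of 430.5 and 441.8 in younger apices, 159.8 and 310.6 in older apices, 2.99 and 19.8 in expanding leaves, and 5.24 and 0.641 in mature leaves. Here too every apex array lay above every leaf array. The gene was at percentiles 90.6 and 91.3 of the younger-apex arrays, and 3 of its 4 leaf values were below percentile 30 of their array. Its 2 older-apex arrays stood apart from each other, with log2 levels of 7.39 and 8.31.

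IAA29 followed another course. Its scaled intensities were 90.5 and 93.2 in younger apices, 24.01 and 7.96 in older apices, 75.5 and 41.6 in expanding leaves, and 42.8 and 45.2 in mature leaves. The older apices were the lowest group, with both arrays below the other 6, which was so for 4.5% of genes. IAA29 stood at percentiles 34.9 and 19.2 of the older-apex arrays and between 47.6 and 64.1 on all others. Its lower older-apex value was thus below percentile 30 of its array.

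**Figure D1:**
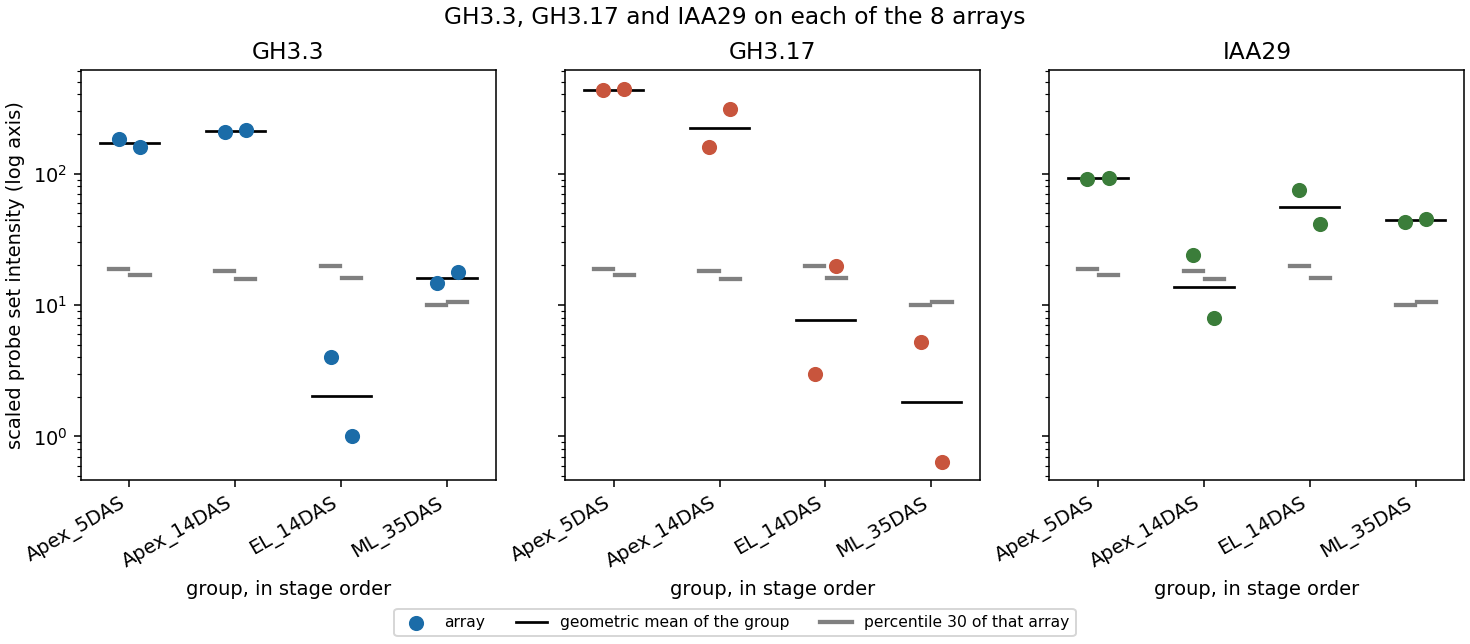
Scaled probe set intensity (log axis) of GH3.3, GH3.17 and IAA29 on each array, by group in stage order; points are arrays, black lines the geometric mean of the 2 arrays of a group, and grey lines percentile 30 of each array. GH3.3 and GH3.17 lie between 159.8 and 441.8 in apices and at 19.8 or lower in leaves, while IAA29 is lowest in older apices, at 24.01 and 7.96.

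Whether a growing leaf differs from the apex of the same day was asked by comparing expanding leaves with older apices. On the log2(scaled intensity + 7.7) scale used for every test, where 7.7 is the pseudocount added to each value, GH3.3 averaged 3.34 ± 0.30 in expanding leaves and 7.77 ± 0.03 in older apices (SD, n = 2 each). It fell by 4.44 ± 0.26 (SE; limma adjusted p = 2.8e-05, Benjamini-Hochberg over 9905 genes). GH3.17 averaged 4.10 ± 0.96 in expanding leaves and 7.85 ± 0.66 in older apices, a change of -3.75 ± 0.45 (limma adjusted p = 0.0021). IAA29 went the other way, with 6.0 ± 0.53 in expanding leaves and 4.48 ± 0.72 in older apices, a change of 1.52 ± 0.37 (limma adjusted p = 0.038). All 3 genes passed, while 6.3% of the 9905 genes did. By size at this pseudocount, GH3.3 ranked 6 and GH3.17 ranked 7 among the decreases, and IAA29 ranked 98 among the increases.

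The sizes of the GH3 changes are not fixed, because the leaf values sit near the pseudocount. When the pseudocount was taken from percentile 5 of the table, or from percentile 40, in place of 20, the change of GH3.3 was -6.002 and -2.99, and that of GH3.17 was -4.59 and -2.72. Both genes passed under every alternative tried in this comparison. The change of IAA29, whose lower older-apex value also sits near the pseudocount, ran from 0.98 to 1.92 under the other settings. The call of IAA29 depended on single arrays: without Apex_14DAS replicate 2, the lower one, its change was 1.01 (adjusted p = 0.285), and without EL_14DAS replicate 1 it was 1.15 (adjusted p = 0.238). The call was also lost where the change was not smaller: at 1.90 without EL_14DAS replicate 2 (adjusted p = 0.0595), and at an unaltered 1.52 without either mature-leaf array (adjusted p = 0.0819 and 0.0817), which enters only through the shared spread.

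Expanding leaves were also set against younger apices. GH3.17 was lower in expanding leaves, with a change of -4.69 ± 0.45 (limma adjusted p = 0.00035) that ran from -5.56 to -3.61 under the other settings. GH3.3 changed by -4.15 ± 0.26 (adjusted p = 4.4e-05), and by -5.71 to -2.73 under the other settings. In this comparison 9.75% of genes passed. IAA29 was among those that did not, with 6.0 ± 0.53 in expanding leaves and 6.64 ± 0.03 in younger apices, a change of -0.64 with a 95% interval of -1.45 to 0.18 (adjusted p = 0.33). The 2 comparisons with expanding leaves share those arrays and are not independent of each other.

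Mature leaves differed from both apices in the same direction for the GH3 genes. GH3.17 averaged 3.38 ± 0.45 in mature leaves, against 8.79 ± 0.03 in younger apices, a change of -5.42 ± 0.45 (limma adjusted p = 3.4e-05). Against older apices it changed by -4.47 ± 0.45 (adjusted p = 8.2e-05). Both mature-leaf values of GH3.17 are below percentile 30 of their array, and these changes ran from -7.03 to -3.93 and from -6.06 to -3.05 under the other settings. GH3.3 averaged 4.58 ± 0.13 in mature leaves, against 7.49 ± 0.13 in younger apices, a change of -2.91 ± 0.26 (limma adjusted p = 4.8e-05). Against older apices GH3.3 changed by -3.19 ± 0.26 (limma adjusted p = 2.5e-05). Its changes ran from -3.41 to -2.19 and from -3.71 to -2.44 under the other settings. These 2 comparisons called 32.3% of genes against younger apices and 32.6% against older apices, so passing is common there. By size at this pseudocount, GH3.17 ranked 7 and 15 among the decreases against younger and older apices, and GH3.3 ranked 105 and 83.

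IAA29 was higher in mature leaves than in older apices, at 5.69 ± 0.05 against 4.48 ± 0.72. The change was 1.21 ± 0.37 (limma adjusted p = 0.029) and ran from 0.74 to 1.61 under the other settings. That call was lost without Apex_14DAS replicate 2 (change 0.71, adjusted p = 0.211) and, at changes of 1.25 and 1.18, without ML_35DAS replicate 1 or 2 (adjusted p = 0.12 and 0.13). Against younger apices its change was -0.95 with a 95% interval of -1.76 to -0.13, and it did not pass (adjusted p = 0.073). The test passed with only the 2 groups compared (adjusted p = 0.0332), with the pseudocount at percentile 40 (0.0411), with values below percentile 30 of each array set to that percentile (0.0376) and without either array of older apices (0.0482 and 0.0457).

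Between the leaf stages only GH3.3 passed, in a comparison that called 21.4% of genes. It was higher in mature than in expanding leaves, with 4.58 ± 0.13 against 3.34 ± 0.30, a change of 1.24 ± 0.26 (limma adjusted p = 0.0091). Its expanding-leaf side lies at the low end of the arrays, while both mature-leaf values are above percentile 30. With values below percentile 30 of each array set to that percentile, an alternative chosen after seeing the data, it became -0.14 (adjusted p = 0.734). That floor is 9.95 and 10.6 on the mature-leaf arrays and 19.9 and 16.0 on the expanding-leaf arrays. The call was also lost with the pseudocount at percentile 40 (change 0.54, adjusted p = 0.0558), and in fits lacking EL_14DAS replicate 2 or 1 of the mature-leaf arrays, whichever it was (adjusted p up to 0.0712). GH3.17 changed by -0.72 with a 95% interval of -1.72 to 0.28 (adjusted p = 0.26), and IAA29 by -0.31 with an interval of -1.12 to 0.51 (adjusted p = 0.57).

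The age of the apex was asked by comparing older with younger apices, where 2.56% of genes passed. IAA29 was lower in older apices, with 4.48 ± 0.72 against 6.64 ± 0.03, a change of -2.16 ± 0.37 (limma adjusted p = 0.019), which ranked 48 among the decreases. The lower older-apex value, 7.96, lay below percentile 30 of its array and near the pseudocount, so the size is not fixed. It ran from -2.62 to -1.48 under the other settings. Without Apex_5DAS replicate 1, the array that stood apart, the change was -2.18 (adjusted p = 0.0587), and without Apex_14DAS replicate 2 it was -1.65 (adjusted p = 0.111). The call was lost without either mature-leaf array too (adjusted p = 0.0615 and 0.0614), although these arrays enter only through the shared spread, and with only the 2 groups compared (adjusted p = 0.102). GH3.3 changed by 0.28 with a 95% interval of -0.29 to 0.86 (adjusted p = 0.58). GH3.17 changed by -0.94 with an interval of -1.94 to 0.06 (adjusted p = 0.29), and its value ran from -1.41 to -0.48 when single arrays were left out.

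The levels of GH3.3 ran, from high to low, through older apices, younger apices, mature leaves and expanding leaves, and the neighbours that did not pass were the 2 apex stages. For GH3.17 the order was younger apices, older apices, expanding leaves and mature leaves, and neither the 2 apex stages nor the 2 leaf stages passed against each other. For IAA29 it was younger apices, expanding leaves, mature leaves and older apices. Of its neighbouring pairs only mature leaves and older apices passed. An F test over the 4 groups, which passed for 35.4% of genes, gave limma adjusted p = 1.1e-05 for GH3.3, 5.5e-05 for GH3.17 and 0.007 for IAA29.

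**Figure D2:**
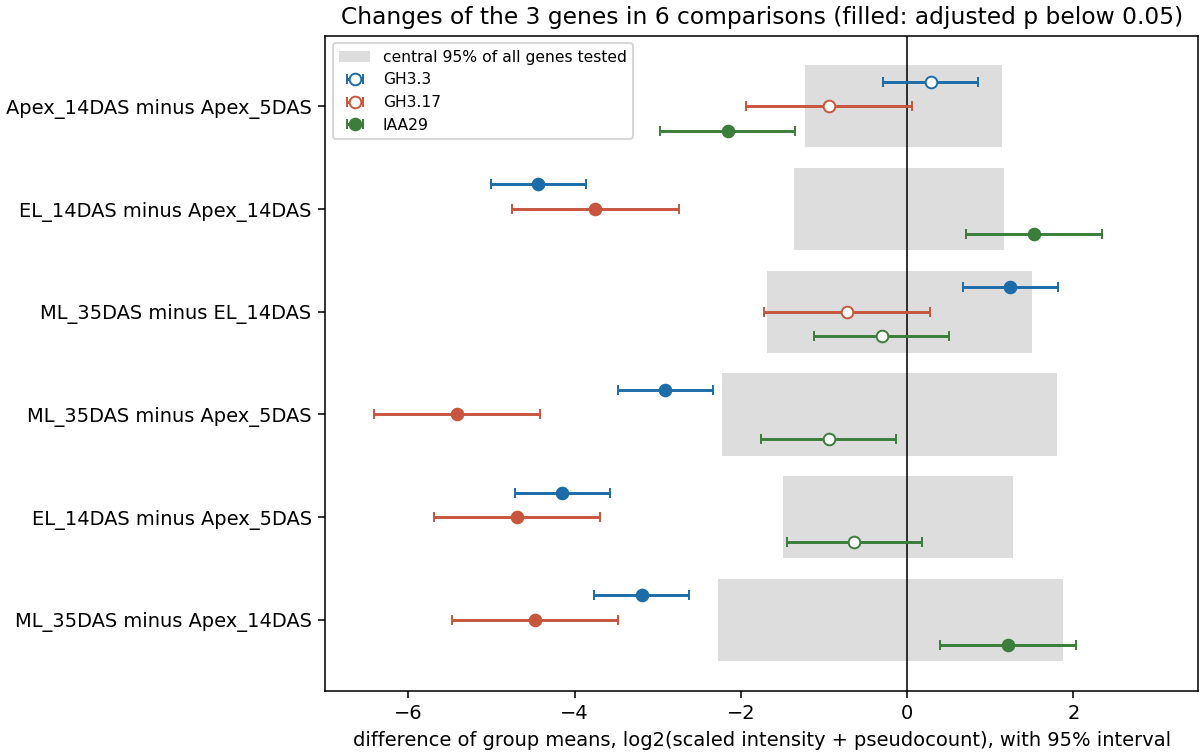
Differences of group means on the log2(scaled intensity + pseudocount) scale, with 95% intervals from limma, for GH3.3, GH3.17 and IAA29 in 6 comparisons; filled points have an adjusted p below 0.05, and grey bars span the central 95% of 9905 genes. In all 4 comparisons of leaves with apices both GH3 genes lie below the grey bar, from -2.91 to -5.42, and IAA29 lies below it in older against younger apices, at -2.16, and above it in expanding leaves against older apices, at 1.52.

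In whole organs, fewer cells of a type and less RNA per cell cannot be told apart, and this holds for every change given here. The summed intensity of the cell division genes was higher in apices than in leaves, as GH3.3 and GH3.17 were, but the likeness was partial. The lowest younger-apex sum, 572, was close to the highest expanding-leaf sum, 529. Taken singly, AUR2 and BUBR1 overlapped between these groups. The sum was lowest in mature leaves, as GH3.17 was, although the leaf stages did not pass against each other for GH3.17. GH3.3 was lowest in expanding leaves, but both its values there lay at the low end of the array. That order of the leaf stages did not hold under every setting. The summed intensity of 4 nuclear photosynthesis genes (LHCB4.2, CaS, NdhN and NdhL), also chosen with earlier results known, was lowest in older apices, as IAA29 was. It was 4879 to 7465 in younger apices, 3192 to 3373 in older apices, 7254 to 7476 in expanding leaves and 9479 to 10060 in mature leaves. LHCB4.2, the largest part of this sum, is among the genes counted below as lower in older apices than in every other group. Taken singly, NdhL overlapped between the apex groups, with 350.2 on Apex_14DAS replicate 1 and 333.9 on Apex_5DAS replicate 2. The part of either gene set in the changes of the 3 genes was not tested.

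The patterns of the 3 genes were set against all others. Both leaf groups lower than both apex groups, with all 4 comparisons past the threshold, was met by 143 of 9905 genes (1.44%), and GH3.3 and GH3.17 are 2 of these. Leaving out single arrays put that count between 40 and 202. Older apices lower than each of the other groups, with all 3 comparisons past the threshold, was met by 33 genes (0.333%), of which IAA29 is 1. That count was between 4 and 144 when single arrays were left out. Among the 33, picked out after their values were seen, is IAGLU, which is named as an indole-3-acetate glucosyltransferase. IAGLU had scaled intensities of 104.5 and 85.2 in younger apices, 28.3 and 38.0 in older apices, 116.4 and 76.3 in expanding leaves and 238.8 and 207.6 in mature leaves. Its low point in older apices is shared with IAA29, but its highest group was mature leaves (limma adjusted p = 0.013 against expanding leaves).

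Across the 8 arrays GH3.3 and GH3.17 had a Pearson r of 0.895 and a Spearman rho of 0.571, a description that rests on the gap between apices and leaves. IAA29 had an r of -0.23 with GH3.3 and -0.09 with GH3.17. The genes most like each member were taken by the highest r over the same 8 arrays, which takes no account of the size of a change. For GH3.3 these were TUB1, a beta-tubulin gene (r = 0.9911, rho = 0.881), AT1G26650 (0.9852, 0.952), AT1G65270 (0.9762, 0.952), AT4G27270 (0.9752, 0.905) and AT1G31710 (0.9728, 0.952). TUB1 had scaled intensities of 13.1 and 11.3 in expanding leaves and 205 and 176.6 in older apices, while AT1G65270 passed in no comparison. For GH3.17 they were AT2G42910 (r = 0.9908, rho = 0.857), AT3G06220 (0.9905, 0.976), AT5G49990 (0.9857, 0.833), AT3G11600 (0.9846, 0.905) and AT1G60060 (0.9845, 0.905). AT2G42910 averaged a log2 level of 9.38 in younger apices and 8.76 in mature leaves, against 8.79 and 3.38 for GH3.17.

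IAA29 had fewer close matches, with 10 genes at an r above 0.9, against 103 for GH3.3 and 265 for GH3.17. The nearest were AT5G04550 (r = 0.9739, rho = 0.905), AT5G65990 (0.9677, 0.976), AT3G54200 (0.9516, 0.952), AT4G09560 (0.945, 0.952) and AT2G44500 (0.9208, 0.905). Of these, AT5G04550 and AT4G09560 passed in no comparison. AT5G65990 had scaled intensities of 122.3 and 77.1 in older apices and 238.7 and 245.5 in younger apices. AT2G44500 had 44.5 and 29.2 in older apices and 117.6 and 111.7 in younger apices. These genes were chosen for following IAA29 over the same arrays, so their low values in older apices are a description, with no test.

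The rest of the auxin pathway could be seen only in part. Of 141 genes listed by role, 26 have a named probe set and 18 passed the filter on low values. None of the transporters, receptors, response factors, conjugate hydrolases or PIF regulators listed has a named probe set, and these were not analysed here. A gene that passed the filter through the group where it is high had to differ to some degree, so the counts below describe and do not support.

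Among conjugating enzymes, 5 of 14 listed GH3 genes were tested. In expanding leaves against older apices 3 fell and 2 did not pass, and the median of the 5 was -3.26, against -0.06 over all genes, of which 3.47% fell. Against younger apices the count for expanding leaves was again 3 lower and 2 not passing, where 4.89% of all genes fell. In mature leaves 4 fell and 1 did not pass against either apex, beside 22.2% of all genes that fell against older apices and 21.3% against younger apices. Beside the 2 members, GH3.5, listed as WES1, which conjugates auxin and salicylic acid, had this course. GH3.5 had scaled intensities of 748.4 and 757.9 in younger apices, 309.9 and 383.5 in older apices, 35.9 and 23.3 in expanding leaves, and 28.4 and 43.6 in mature leaves. All leaf arrays of GH3.5 were above percentile 30, though 23.3 on EL_14DAS replicate 2 was not far above the 16.0 of that array. The fall of GH3.5 in expanding leaves against older apices was 3.26 ± 0.26 (limma adjusted p = 0.00015). As a change it ran from -3.58 to -2.71 under the other settings. In older against younger apices GH3.5 changed by -1.11 (adjusted p = 0.055). It passed there with equal array medians (adjusted p = 0.0372) and with quantile normalization (0.0318).

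The other GH3 genes, except GH3.9, were weak. GH3.19 (AT1G48660) had 1.18 and 1.39 in mature leaves, against 25.7 and 20.6 in older apices (limma adjusted p = 0.012) and 11.5 and 27.9 in younger apices (0.023). Both calls were lost without either mature-leaf array (adjusted p up to 0.106), the first also without either array of older apices (up to 0.0819) and the second without Apex_5DAS replicate 2 (0.125). GH3.9 stayed between 30.1 and 67.0, above percentile 30 on all arrays, and passed in no comparison. Against older apices it changed by 0.36 in expanding leaves and 0.13 in mature leaves. Against younger apices its changes were -0.34 and -0.57. GH3.1 and GH3.18 did not pass the filter, with highest percentiles of 10.2 and 25.7.

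Of the Aux/IAA repressors, 4 of 29 listed were tested. IAA30, which lacks the degron that makes other members short-lived, fell in mature leaves, with scaled intensities of 0.481 and 8.33 there, against 45.7 and 53.1 in older apices (limma adjusted p = 0.0014) and 27.0 and 36.1 in younger apices (0.0062). The second of these calls was lost without ML_35DAS replicate 1 (adjusted p = 0.0603). Both mature-leaf values of IAA30 were below percentile 30 of their array. Its changes ran from -3.69 to -1.28 against older apices and from -3.05 to -0.89 against younger apices under the other settings. IAA18 and IAA33 passed in no comparison, so that IAA29 was the only tested member that passed between the apex stages or between expanding leaves and older apices. IAA20, IAA31 and IAA34 did not pass the filter.

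Among synthesis genes, 3 of 20 listed were tested. YUC4, a flavin monooxygenase of the last step of auxin synthesis, had 3.42 and 0.588 in mature leaves, against 50.5 and 59.96 in older apices (limma adjusted p = 0.0046) and 58.4 and 60.5 in younger apices (0.0039). Its 2 expanding-leaf arrays disagreed, at 34.9 and 2.46. YUC6 was lower in mature leaves than in older apices (limma adjusted p = 0.027), a call lost with equal array medians (0.0971) and with quantile normalization (0.19), among others. YUC2 passed in no comparison.

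Genes of other inactivation routes moved in both directions. DAO2 (AT1G14120), a relative of the auxin oxidase DAO1, had 35.8 and 39.3 in younger apices, 12.6 and 13.1 in older apices, 1.17 and 4.75 in expanding leaves, and 2.67 and 0.748 in mature leaves. It was lower in mature leaves than in younger apices (limma adjusted p = 0.0018) and in expanding leaves than in younger apices (0.008). UGT74D1, a glucosyltransferase that accepts auxins, had 183.2 and 211.5 in younger apices, 138.6 and 117.2 in older apices, 326.2 and 162.8 in expanding leaves and 460.1 and 501 in mature leaves. It was higher in mature leaves than in older apices (limma adjusted p = 0.0012). DAO1 passed in no comparison.

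Of the other auxin-induced regulators and their relatives, 3 of 8 listed were tested. ARL, a relative of the auxin-induced ARGOS that promotes cell expansion, had 148.0 and 127.7 in younger apices, 78.9 and 76.9 in older apices, 79.2 and 97.46 in expanding leaves and 385.9 and 359.9 in mature leaves. Its rise of 1.99 ± 0.21 in mature over expanding leaves passed without each array in turn (limma adjusted p = 0.00052, up to 0.0148). HAT2, a homeodomain-leucine zipper gene, rose by 0.93 ± 0.24 in the same comparison (limma adjusted p = 0.021), a call lost when EL_14DAS replicate 2 or any 1 mature-leaf array was left out (up to 0.17). LBD16 passed in no comparison.

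**Figure D3:**
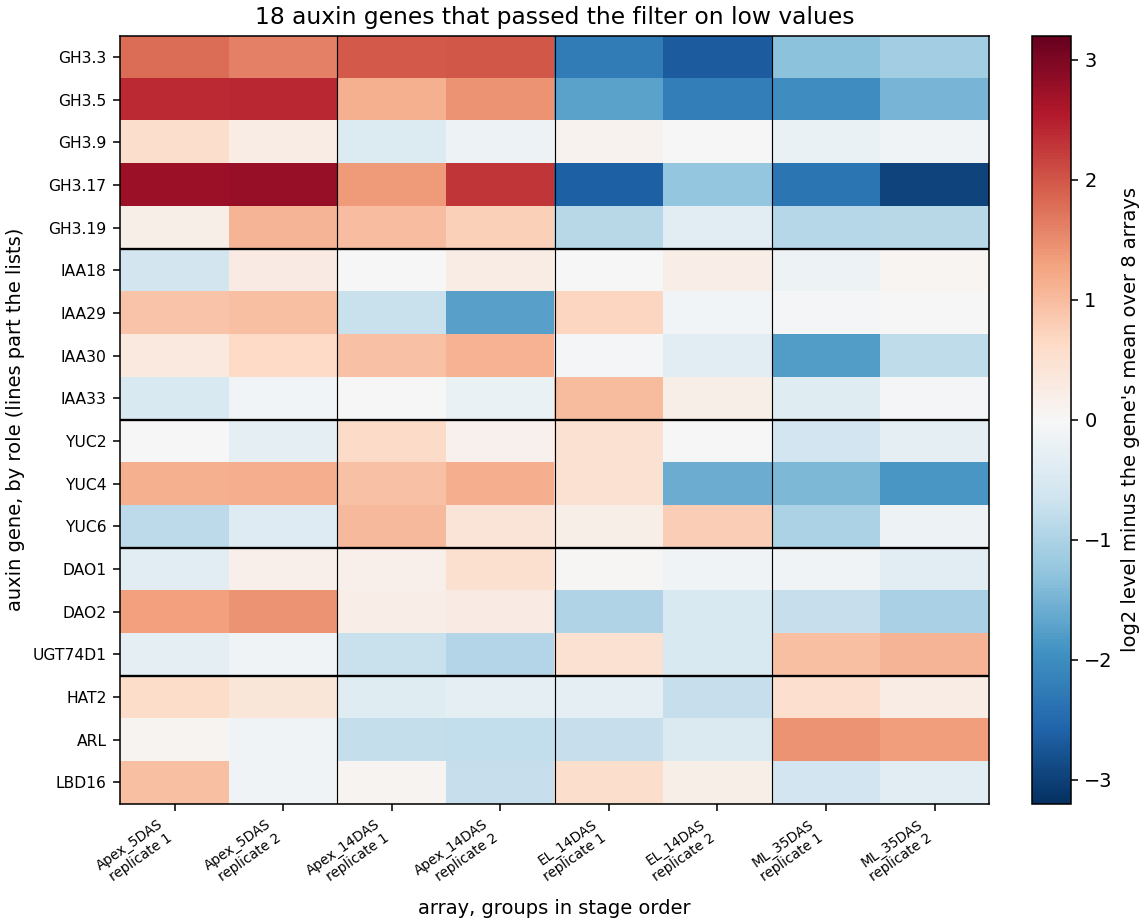
Level of 18 auxin genes on each array as log2(scaled intensity + pseudocount) minus the gene's mean over the 8 arrays, with arrays in stage order and genes by role. GH3.3, GH3.5 and GH3.17 are high on the 4 apex arrays and low on the 4 leaf arrays, IAA29 is lowest on the older-apex arrays, and ARL is highest in mature leaves.

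Over all 15 tested auxin genes other than the 3 members, 1 fell and none rose in expanding leaves against older apices, where 3.47% of all genes fell and 2.83% rose. None of the 15 passed between the apices, where 2.56% of all genes did. In mature leaves 6 fell and 3 rose against older apices, beside 22.2% and 10.3% of all genes. Against younger apices 5 fell and 2 rose, beside 21.3% and 11% of all genes. In expanding leaves against younger apices 3 fell and none rose, beside 4.89% and 4.87% of all genes. The median change of the 15 there was -0.34, where that of all genes was 0.008. In mature leaves against expanding leaves 3 rose and none fell, beside 6.93% and 14.5% of all genes. The median change of the 15 was -0.20 in expanding leaves against older apices, where that of all genes was -0.06, and -0.56 in mature leaves against older apices, where that of all genes was -0.32.

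**Figure D4:**
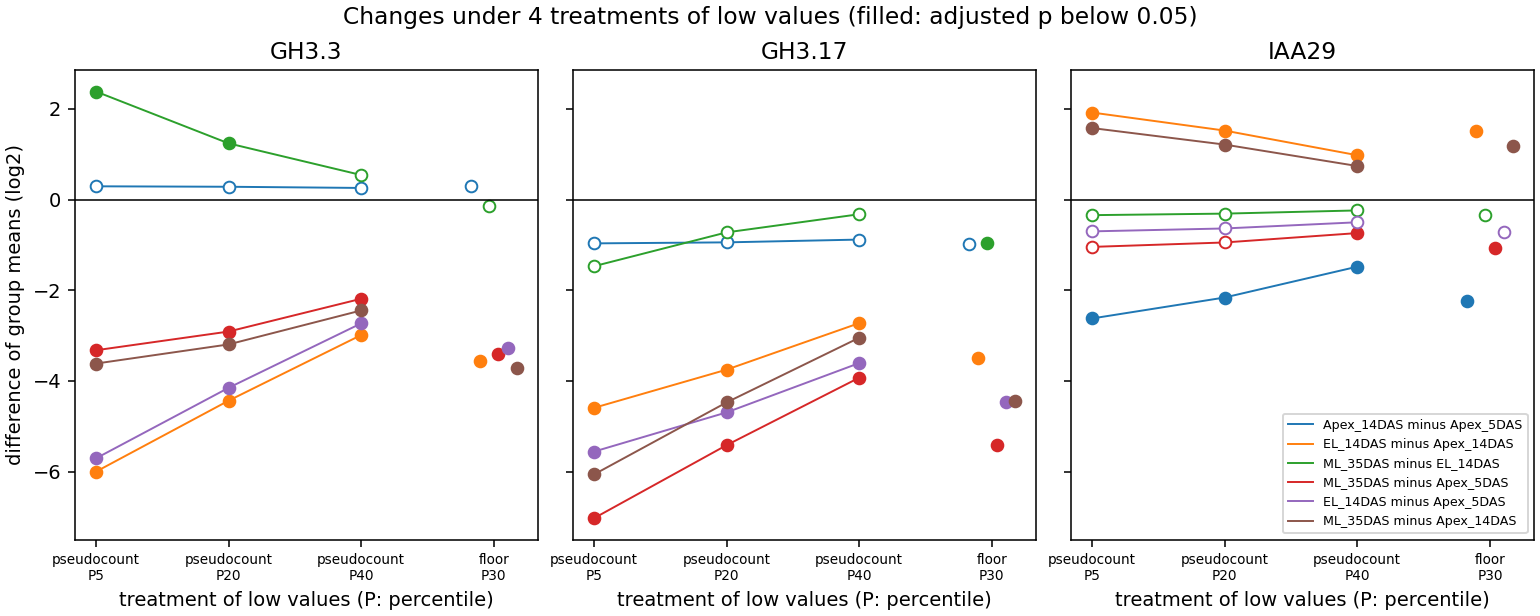
Change of GH3.3, GH3.17 and IAA29 (log2 difference of group means) in 6 comparisons with the pseudocount at percentile 5, 20 or 40 of the table and with a floor at percentile 30 of each array; filled points have an adjusted p below 0.05. The falls of both GH3 genes in leaves against apices pass under all 4, while their size runs from -7.03 to -2.19, and the difference of GH3.3 between mature and expanding leaves runs from 2.39 to -0.14.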

How the data were processed

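Total RNA was isolated on Qiagen RNeasy columns before hybridisation to ATH1 arrays, per the labels' protocols. The deposited intensity values are linear summaries for 22810 probe sets on 8 arrays, and the submitters' processing notes name MAS5. The deposited median of every array is 50, by a step not given in the sources used here.

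The 2% trimmed means differed 1.50-fold, so arrays were multiplied to their median of 132.7 (factors 0.757 to 1.14). After leaving out 64 control probe sets, a pseudocount of 7.7 (percentile 20) was added and log2 taken. A probe set was kept above percentile 30 of its array on at least 2 arrays. A platform table names 14016 probe sets, 503 of them with several genes, which were left out, and 13436 of 13513 matched RefSeq genes of TAIR10.1, taken for their names alone. The brightest probe set stood for a gene.

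The test was limma's moderated test (limma 3.58.1, R 4.3.3, eBayes with an intensity trend, two-sided, all 8 arrays in 1 fit, 4 residual and 6.21 prior degrees of freedom), with Benjamini-Hochberg adjustment over 9905 genes and a threshold of 0.05. The steps were tested on simulated data, and the scaling, pseudocount, filter, probe set rule, trend and arrays entering the fit were varied. The members, lists and tests were chosen with earlier results of these data known. Named are the 3 members, up to 4 passing genes of each role list by lowest F p, and the 5 genes with the highest r to each member; IAGLU and the genes given as not passing were added.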

Additional observations from a re-analysis of the deposited data

How the results depend on the processing

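GH3.3 and GH3.17 were lower in both leaf groups than in both apex groups under all 12 other settings and without each array, with GH3.3 between -6.002 and -2.19 and GH3.17 between -7.03 and -2.72. With equal array medians the all-gene median of mature leaves against older apices shifts by 0.435, and relative to that median GH3.17 changed by -4.15 as reported, -4.29 with equal medians and -4.15 with quantile normalization.

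The rise of GH3.3 in mature over expanding leaves was 0.54 with the pseudocount at percentile 40. It reversed to -0.14 with the floor at percentile 30 of each array, which was lower on the mature-leaf arrays than on the expanding-leaf arrays. That floor made the change of GH3.17 in this comparison -0.95 (adjusted p = 0.0499). It replaced 1 expanding-leaf value and both mature-leaf values of GH3.17, so that size is set mostly by the floors. The fall of IAA29 in older against younger apices (-2.16) and its rise in expanding leaves over older apices (1.52) lost their calls without a filter (adjusted p = 0.0551 and 0.0859), without the intensity trend (0.0502 and 0.0656) and with only the 2 groups compared (0.102 and 0.0704). Its rise in mature leaves over older apices (1.21) lost its call without a filter (0.0611). Its change in mature leaves against younger apices passed with the pseudocount at percentile 40 (-0.74), with only the 2 groups compared (-0.95) and with the floor (-1.06). The cause was not tested.

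Without 1 array, changes in older against younger apices ran from 0.19 to 0.38 for GH3.3, -1.41 to -0.48 for GH3.17 and -2.67 to -1.65 for IAA29. In expanding leaves against older apices they ran from -4.65 to -4.22, -4.43 to -3.07 and 1.01 to 2.03, in the same order of genes. In mature against expanding leaves they ran from 1.03 to 1.45, -1.40 to -0.04 and -0.69 to 0.0692, where IAA29 changed sign without EL_14DAS replicate 1. In mature leaves against younger apices they ran from -3.004 to -2.82, -5.73 to -5.10 and -0.98 to -0.91, in expanding leaves against younger apices from -4.36 to -3.94, -5.38 to -4.01 and -1.01 to -0.26, and in mature leaves against older apices from -3.29 to -3.10, -4.94 to -4.01 and 0.71 to 1.72. The labels do not say whether same-numbered arrays belong together. Correlations of their deviations ran from -0.094 to 0.312, and were highest between older apices and expanding leaves, both taken on day 14. The replicate block changed no call of the 3 genes, and with it IAA29 changed by -2.16 in older against younger apices.

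Counts of genes past the threshold moved more. Between the apices 254 became 90 without a filter, 64 without the trend, 28 with only the 2 groups, 630 with all probe sets, and 27 to 1785 without 1 array. For expanding leaves against older apices 624 became 354, 341 and 1334 without a filter, without the trend and with all probe sets, and 95 to 1218 without 1 array. For mature against expanding leaves 2118 became 3926 with all probe sets, 3550 with the floor, and 484 to 3189 without 1 array. For mature leaves against younger apices 3196 became 6001 with all probe sets and 1416 to 3593 without 1 array, and against older apices 3225 became 6103 and 1490 to 4086. For expanding leaves against younger apices 966 became 349 with only the 2 groups, 2024 with all probe sets and 319 to 1771 without 1 array. In the F test 3505 became 6738 with all probe sets and 1498 to 5105 without 1 array.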
